A study of Mus musculus with 6 samples.

Results

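The 10 genes described here are Nfe2l2, which encodes the transcription factor NRF2, and 9 of its antioxidant target genes: Nqo1, Hmox1, Gclc, Gclm, Txnrd1, Srxn1, Slc7a11, Gsr and Prdx1. They were taken by name from a table of 18507 genes, in which all 10 were present, and all 10 passed the filter on low counts that left 15347 genes for testing. Gene expression was measured by RNA sequencing of interscapular brown adipose tissue in 3 wild-type mice (WT) and 3 Beclin1-/- mice (Beclin1_KO), all on the C57BL/6 background. The series title places the knockout in adipocytes. The wild-type controls received the same tamoxifen as the transgenic animals, 75 mg/kg by gavage on 5 days, to start Cre recombination, although a treatment tag of every sample reads untreated. The promoter that drives Cre, the age and sex of the animals and the time from tamoxifen to dissection are not stated by the sources used here. All animals ate chow and were housed at 22 °C with 12 h of light.

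The libraries held 44269031 to 60983193 counts. Becn1, the targeted gene, fell from 86.2 ± 3.20 CPM (counts scaled to a common library size and corrected for composition, SD, n = 3) in WT to 51.5 ± 7.88 CPM in Beclin1_KO (log2 change -0.74, SE 0.13, adjusted p = 0.00411), and its groups did not overlap. The residual reads come from whole tissue, and the deleted exons are not stated. All 10 brown adipocyte markers examined were detected in both groups, with a summed level of 26010 to 30550 CPM in WT and 6879 to 12570 CPM in Beclin1_KO. In whole tissue, fewer cells of a type and less RNA per cell cannot be told apart. Of 18 macrophage markers, 17 rose and none was at 0, and their summed level was 324 to 365 CPM in WT and 5141 to 8130 CPM in Beclin1_KO. Summed skeletal muscle markers ranged from 702 to 21100 CPM in WT and from 1562 to 39720 CPM in Beclin1_KO, highest in WT replicate 2 and Beclin1_KO replicate 1, and 0 of 12 passed the test. All 6 fibroblast markers rose, with a summed level of 1848 to 2745 CPM in WT and 8937 to 15010 CPM in Beclin1_KO. Summed endothelial markers were at 1105 to 1281 CPM and 577 to 749 CPM, red blood cell markers at 925 to 1416 CPM and 137 to 545 CPM. The 137 CPM belong to Beclin1_KO replicate 1, where the marker Hbb-bs had 0 counts. Neutrophil and lymphocyte markers were scarce, at most 10.2 and 8.55 CPM in WT and 41.5 and 45.5 CPM in Beclin1_KO.

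NRF2 is held at a low level by KEAP1, an adaptor that passes it to the CUL3 ubiquitin ligase for degradation. When electrophiles modify KEAP1, or when the autophagy cargo receptor SQSTM1 binds it, NRF2 escapes, pairs with a small MAF protein and binds antioxidant response elements, while BACH1 represses genes through the same elements. The targets make and recycle glutathione, reduce thioredoxin and peroxiredoxins, break down heme and detoxify quinones. In brown adipocytes, whose dense mitochondria burn fuel for heat, these enzymes work beside the superoxide dismutases and catalase.

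Promoter windows from RefSeq (build GRCm38.p6, 250 bases before to 50 bases after an annotated start site) were found for 7 of the 10 genes, in 9 windows, and not for Hmox1, Gclc and Gsr. They were searched on both strands for TGACNNNGC, the core of the antioxidant response element, and for TGAGTCA, the AP-1 site. The core matched 5 of the 9 windows, of Nfe2l2, Gclm, Txnrd1, Srxn1 and Prdx1, and 12.4% of all 32851 windows in the reference. The AP-1 site matched the windows of Srxn1 and Prdx1, against 5.20% of all windows. The 5 windows with a core are shown 5′ to 3′ on the strand of the gene, with every match to either motif in capitals, since they are the windows in which the motif of NRF2 itself was found.
Nfe2l2, chr2:75704614-75704913, minus strand: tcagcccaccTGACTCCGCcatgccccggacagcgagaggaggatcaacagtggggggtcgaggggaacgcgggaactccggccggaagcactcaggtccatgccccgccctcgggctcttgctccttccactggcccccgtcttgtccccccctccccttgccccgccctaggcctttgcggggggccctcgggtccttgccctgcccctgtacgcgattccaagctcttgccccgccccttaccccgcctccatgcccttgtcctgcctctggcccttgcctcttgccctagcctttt
Gclm, chr3:122245307-122245606, plus strand: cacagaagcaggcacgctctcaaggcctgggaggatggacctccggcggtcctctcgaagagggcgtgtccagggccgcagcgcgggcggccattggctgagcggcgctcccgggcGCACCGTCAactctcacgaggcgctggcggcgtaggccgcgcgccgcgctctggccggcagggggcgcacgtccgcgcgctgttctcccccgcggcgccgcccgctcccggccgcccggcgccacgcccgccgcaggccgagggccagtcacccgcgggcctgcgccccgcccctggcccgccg
Txnrd1, second of 3 start sites, chr10:82858956-82859255, plus strand: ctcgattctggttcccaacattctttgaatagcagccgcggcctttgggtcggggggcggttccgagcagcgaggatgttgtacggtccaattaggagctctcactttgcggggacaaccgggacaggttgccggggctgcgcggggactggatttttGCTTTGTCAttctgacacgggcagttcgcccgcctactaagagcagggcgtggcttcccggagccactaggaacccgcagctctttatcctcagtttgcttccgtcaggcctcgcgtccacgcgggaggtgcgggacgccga
Srxn1, chr2:152105274-152105573, plus strand: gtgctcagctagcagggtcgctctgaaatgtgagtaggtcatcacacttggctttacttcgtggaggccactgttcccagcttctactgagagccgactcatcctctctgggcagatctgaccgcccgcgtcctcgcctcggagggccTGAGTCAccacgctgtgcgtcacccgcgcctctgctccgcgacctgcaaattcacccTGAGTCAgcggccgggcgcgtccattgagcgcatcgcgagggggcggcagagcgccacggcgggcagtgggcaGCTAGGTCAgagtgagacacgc
Prdx1, chr4:116685349-116685648, plus strand: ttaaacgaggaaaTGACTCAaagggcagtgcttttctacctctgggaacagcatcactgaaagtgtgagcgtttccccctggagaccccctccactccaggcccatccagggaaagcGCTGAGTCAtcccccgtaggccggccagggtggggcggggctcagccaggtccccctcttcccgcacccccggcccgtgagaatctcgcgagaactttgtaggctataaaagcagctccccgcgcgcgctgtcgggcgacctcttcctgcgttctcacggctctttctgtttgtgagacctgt

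In the Prdx1 window both motifs overlap in GCTGAGTCA, which reads as the antioxidant core on the opposite strand and as the AP-1 site on the strand shown, 133 to 125 bases before the start site. In the Srxn1 window the only match to TGACNNNGC lies after the start site, and a pair of AP-1 sites begins 102 and 45 bases before it. With the bases that follow, the AP-1 site at 45 bases reads TGAGTCAGC, a single base away from the searched core. Variants of the core were not searched. No match to the core lay in the windows of Nqo1 and Slc7a11 or in the other 2 windows of Txnrd1. A match describes letters in these windows only.

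Most of the 10 transcripts were higher in Beclin1_KO brown fat, with the largest folds for Nqo1, Hmox1, Slc7a11 and Srxn1. Of the 10 genes, 7 rose and 0 fell, against 24.8% of all genes tested that rose and 46.6% that passed in either direction. At least 2-fold rises were called in 6 of the 10, against 17.4% of all genes tested. The genes that did not pass were Gclm, Gsr and Prdx1. In all 10 the lowest knockout library lay above the highest WT library, against 31.4% of all genes tested, or 59.7% for groups apart in either direction. Without any single WT library 5 of the 10 passed, and without the libraries highest in muscle genes 6 did. Calls over all genes also became fewer, from 7150 to 6211, 6080 and 5559 without WT replicate 1, 2 and 3. Without the libraries highest in muscle genes they numbered 4914. The median log2 change (Beclin1_KO minus WT) over the 10 genes was 1.25, against 0.05 over all genes tested. Of all calls 53.3% were higher, and on the log2(FPKM + 1) scale 74.2%. Macrophage markers rose in the same libraries, and their part in these rises was not tested.

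**Figure D1:**
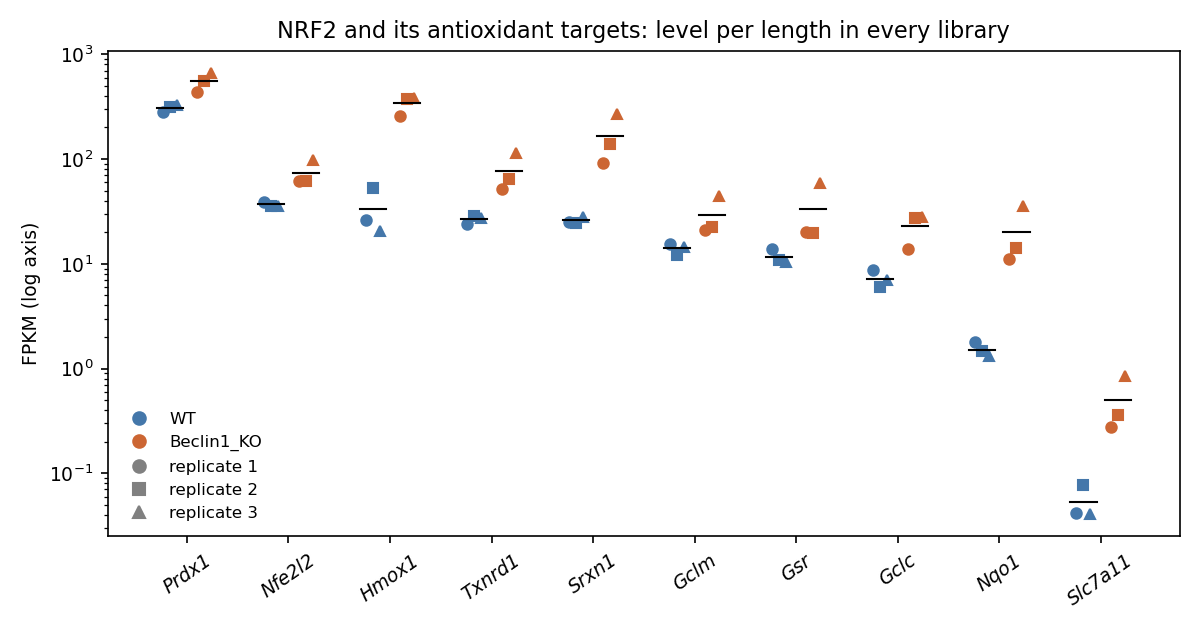
Level per length (FPKM, log axis) of the 10 genes in each of the 3 WT (blue) and 3 Beclin1_KO (orange) libraries, ordered by WT mean, with symbols for the replicate and a black line for the mean of a group. In each gene the 3 knockout points sit above the 3 WT points, and Beclin1_KO replicate 3 is the highest.

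Per length, the order of the genes in WT ran from Prdx1 at 306 ± 22.8 FPKM (fragments scaled to gene length and library size, SD, n = 3) to Slc7a11 at 0.0536 ± 0.0211 FPKM. Between them stood Nfe2l2 at 36.8 ± 2.15 FPKM, Hmox1 at 33.2 ± 17.0 FPKM, Txnrd1 at 26.7 ± 2.56 FPKM and Srxn1 at 25.9 ± 2.03 FPKM, each of which overlapped its neighbour in the order. Gclm at 14.0 ± 1.57 FPKM and Gsr at 11.7 ± 1.77 FPKM overlapped each other, and Gclc at 7.21 ± 1.33 FPKM and Nqo1 at 1.52 ± 0.238 FPKM stood apart from both of their neighbours. In Beclin1_KO Prdx1 again led, at 551 ± 114 FPKM, without overlap with Hmox1 at 339 ± 71.4 FPKM. Srxn1 followed at 168 ± 92.1 FPKM and overlapped both Hmox1 and Txnrd1 (76.4 ± 32.7 FPKM). Nqo1 reached 20.2 ± 13.1 FPKM and overlapped Gclc at 23.1 ± 7.98 FPKM, whereas Slc7a11 at 0.497 ± 0.313 FPKM remained apart from all other members.

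Nfe2l2 (Entrez Gene 18024, chromosome 2, 75675513 to 75704663, minus strand, GRCm38.p6), the regulator itself, was found at 105, 100.2 and 108 CPM in the WT libraries and at 144, 131 and 221 CPM in the knockouts. The WT values lay within 1.08-fold of each other, and Beclin1_KO replicate 3 stood well above the other two. Its log2 change was 0.66 (SE 0.20, adjusted p = 0.0347), a 1.58-fold rise, the smallest among the 7 genes that passed. The call did not hold when WT replicate 1 (adjusted p = 0.0997), 2 (0.101) or 3 (0.0917) was left out, nor in the fit of 2 against 2 libraries without those highest in muscle genes (0.106). Without WT replicate 1, 2 or 3 the log2 change of Nfe2l2 was 0.64, 0.62 or 0.67. Over 18 alternatives the adjusted p was 0.00563 to 0.106.

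Nqo1 (Entrez Gene 18104, chromosome 8, 107388225 to 107403205, minus strand), the quinone reductase often read as a marker of NRF2 activity, and Hmox1 had the highest fold changes among the 10. Nqo1 stood at 3.02, 2.61 and 2.52 CPM in WT and at 16.3, 18.8 and 50.2 CPM in Beclin1_KO. The lowest knockout library was 5.39-fold above the highest WT library. The log2 change was 3.39 (SE 0.48, adjusted p = 0.00220), a 10.5-fold rise, and without Beclin1_KO replicate 3 it was 2.69 (adjusted p = 0.000161), when Hmox1 led with 2.89. Hmox1 was also above Nqo1 without WT replicate 2 (3.49 against 3.35), in the fit of 2 against 2 libraries (3.643 against 3.638) and on log2(FPKM + 1) (3.40 against 2.91). Of all genes tested, 4.99% had a higher log2 change than Nqo1 in the fit of all 6 libraries.

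Hmox1 (Entrez Gene 15368, chromosome 8, 75093618 to 75100593, plus strand), the inducible heme oxygenase, which splits heme into biliverdin, iron and carbon monoxide, rose 8.03-fold. It stood at 45.1, 94.5 and 40.2 CPM in WT and at 379, 509 and 557 CPM in the knockouts (log2 change 3.01, SE 0.38, adjusted p = 0.00117). WT replicate 2 stood above the other WT libraries, and the knockout libraries were close to each other, within 1.47-fold. Without WT replicate 2 and Beclin1_KO replicate 1, the libraries highest in muscle genes, the log2 change was 3.64. The constitutive heme oxygenase gene Hmox2 stood at 74.6 ± 2.29 and 67.8 ± 5.09 CPM (adjusted p = 0.280). Per length, Hmox1 was 0.416 to 1.03 times the level of Hmox2 in WT and 4.05 to 6.63 times in Beclin1_KO.

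The genes of glutathione supply did not move by the same amount. Slc7a11 (Entrez Gene 26570, chromosome 3, 50364936 to 50499087, minus strand), the exchanger subunit that imports cystine for glutathione synthesis, was scarce, with 18, 37 and 20 counts in WT and 132, 183 and 491 counts in Beclin1_KO. These are 0.435, 0.826 and 0.475 CPM against 2.40, 2.85 and 7.24 CPM, without overlap. Its log2 change was 2.84 (SE 0.54, adjusted p = 0.00560), or 2.17 without Beclin1_KO replicate 3 (adjusted p = 0.00758) and 3.47 in the fit of 2 against 2 libraries. Annotated transcripts of Slc7a11 share a stretch of up to 375 bases, at 95% identity or more, with 9 other genes, among them alpha-tubulin genes, so the assignment of these few reads is uncertain.

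Gclc (Entrez Gene 14629, chromosome 9, 77754535 to 77794489, plus strand), the catalytic subunit of the ligase that limits glutathione synthesis, rose 2.50-fold. Its values were 32.4, 23.5 and 29.3 CPM in WT and 44.4, 79.7 and 88.8 CPM in Beclin1_KO (log2 change 1.32, SE 0.27, adjusted p = 0.00790). Beclin1_KO replicate 1 lay nearest to the WT range. Gclm (Entrez Gene 14630, chromosome 3, 122245487 to 122267215, plus strand), the modifier subunit of the same ligase, did not pass. Its values were 34.7, 29.0 and 36.7 CPM in WT and 40.8, 40.0 and 84.8 CPM in Beclin1_KO (log2 change 0.72, SE 0.31, adjusted p = 0.103). Per length, Gclm was 1.77 to 2.07 times the level of Gclc in the WT libraries and 1.52, 0.830 and 1.58 times in the knockouts. Stretches of up to 297 bases in Gclm transcripts are shared with 15 other genes, 12 of them pseudogenes, so its counts carry some uncertainty.

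Gsr (Entrez Gene 14782, chromosome 8, 33653238 to 33698162, plus strand), the reductase that regenerates glutathione with NADPH, had a single high library. It stood at 40.0, 33.1 and 34.4 CPM in WT and at 50.7, 45.5 and 146 CPM in Beclin1_KO (log2 change 1.17, SE 0.48, adjusted p = 0.0935). Beclin1_KO replicate 3 was 3.03-fold above the mean of the other knockouts, whereas those lay close to the WT range. Without that library the log2 change was 0.43 (SE 0.12) with an adjusted p of 0.0337.

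In the thioredoxin branch Srxn1 (Entrez Gene 76650, chromosome 2, 152105524 to 152111376, plus strand), the sulfiredoxin that repairs overoxidized peroxiredoxins, rose 5.05-fold. It stood at 76.8, 78.7 and 97.6 CPM in WT and at 242, 339 and 697 CPM in Beclin1_KO (log2 change 2.34, SE 0.40, adjusted p = 0.00413). The lowest knockout library lay 2.48-fold above the highest WT library. Txnrd1 (Entrez Gene 50493, chromosome 10, 82833951 to 82897724, plus strand), the cytosolic thioredoxin reductase, rose 2.24-fold, from 88.8, 112 and 115 CPM to 164, 189 and 355 CPM (log2 change 1.16, SE 0.31, adjusted p = 0.0202). The Txnrd1 call did not hold when WT replicate 1 (adjusted p = 0.0762), 2 (0.0534) or 3 (0.0581) was left out, within 0.000560 to 0.0762 over 18 alternatives. In those fits without WT replicate 1, 2 or 3 its log2 change was 1.02, 1.20 or 1.21.

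Prdx1 (Entrez Gene 18477, chromosome 4, 116685599 to 116700000, plus strand), a peroxiredoxin that reduces hydrogen peroxide, stood at 434, 502 and 567 CPM in WT and at 579, 670.4 and 865 CPM in Beclin1_KO. The gap between the groups was 1.02-fold. Its log2 change of 0.49 (SE 0.20, adjusted p = 0.0795) did not pass. A pair of pseudogenes share 597 bases with Prdx1 transcripts at 97.5% and 98.3% identity, and the sources used here do not say how reads that map to both were handled. In the authors' deposited table, the adjusted p was 0.0386 for Prdx1, 0.0139 for Gsr and 0.0532 for Gclm, and below 0.05 for the other 7 genes. For Prdx1, Gsr and Gclm the alternative fit with DESeq2 gave the same adjusted p, so these are not separate results.

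**Figure D2:**
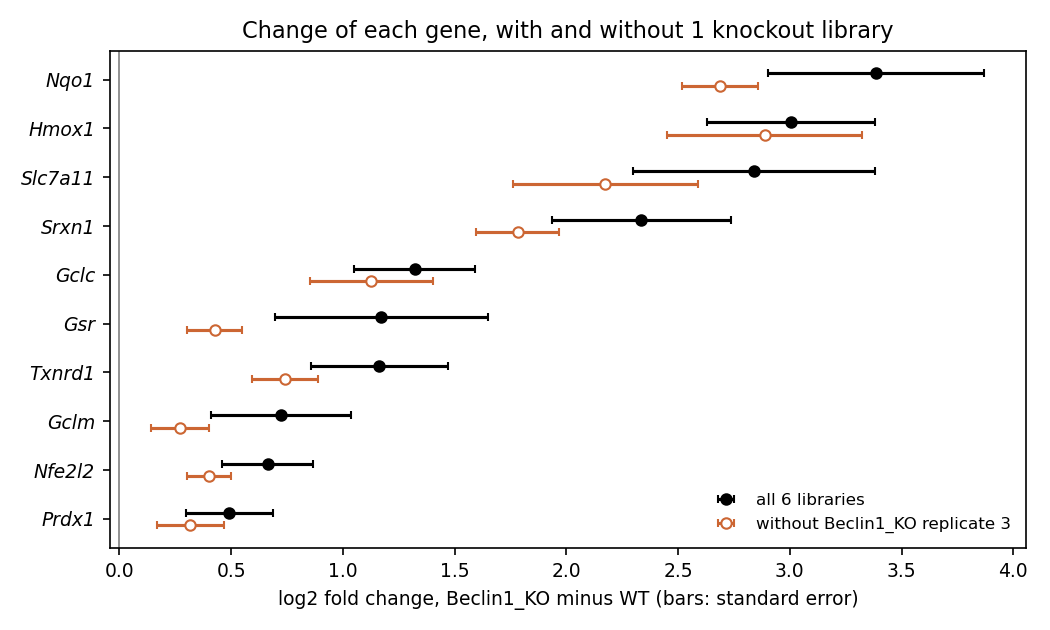
Log2 change (Beclin1_KO minus WT) of each of the 10 genes from edgeR, with bars of 1 standard error, in all 6 libraries (black) and without Beclin1_KO replicate 3 (open orange). All values lie above 0, and leaving out the library lowers each of them, most for Gsr, from 1.17 to 0.43.

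The 10 genes shared their highest knockout library but not their lowest. Beclin1_KO replicate 3 was the highest knockout library in all 10, while 38.4% of all genes tested and 22.6% of the 3810 genes that rose were highest there among the knockouts. So were 71 of the 117 tested genes of the 7 neighbouring redox lists (60.7%), among them 12 of the 28 that rose and 33 of the 41 that fell, so the place of replicate 3 is shared with many of those genes. The lowest knockout library was replicate 1 in 7 of the genes and replicate 2 in 3. Relative to the WT mean, Nqo1 stood at 5.99, 6.91 and 18.5 times in the 3 knockouts, Srxn1 at 2.87, 4.01 and 8.26 times, and Nfe2l2 at 1.38, 1.26 and 2.11 times. Hmox1 differed less among them, at 6.31, 8.49 and 9.28 times. Without replicate 3, 8 of the 10 genes passed, since Gsr then passed as well, at a smaller fold change. Over all genes 7229 passed without that library, against 7150 with all 6 libraries.

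Markers of other cell types differed in their order among the knockouts. Summed macrophage markers stood at 23.2, 17.6 and 14.7 times the WT mean in Beclin1_KO replicates 1, 2 and 3. Among the knockouts 3 of the 18 markers (16.7%) were highest in replicate 3, against 22.6% of all genes that rose. Summed fibroblast markers were at 6.02, 6.47 and 3.85 times, and summed muscle markers at 5.13, 1.19 and 0.202 times. Summed brown adipocyte markers were at 0.238, 0.307 and 0.436 times, with replicate 3 the highest, as it was for summed endothelial markers (0.492, 0.514 and 0.639 times) and red blood cell markers (0.124, 0.462 and 0.493 times). The 0.124 is lowered by Hbb-bs, at 0 counts in replicate 1 against 17855 and 19731 in replicates 2 and 3, for a reason that was not tested. Becn1 was at 0.673, 0.624 and 0.496 times, with replicate 3 the lowest. With 3 knockout libraries no test was made of these relations.

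**Figure D3:**
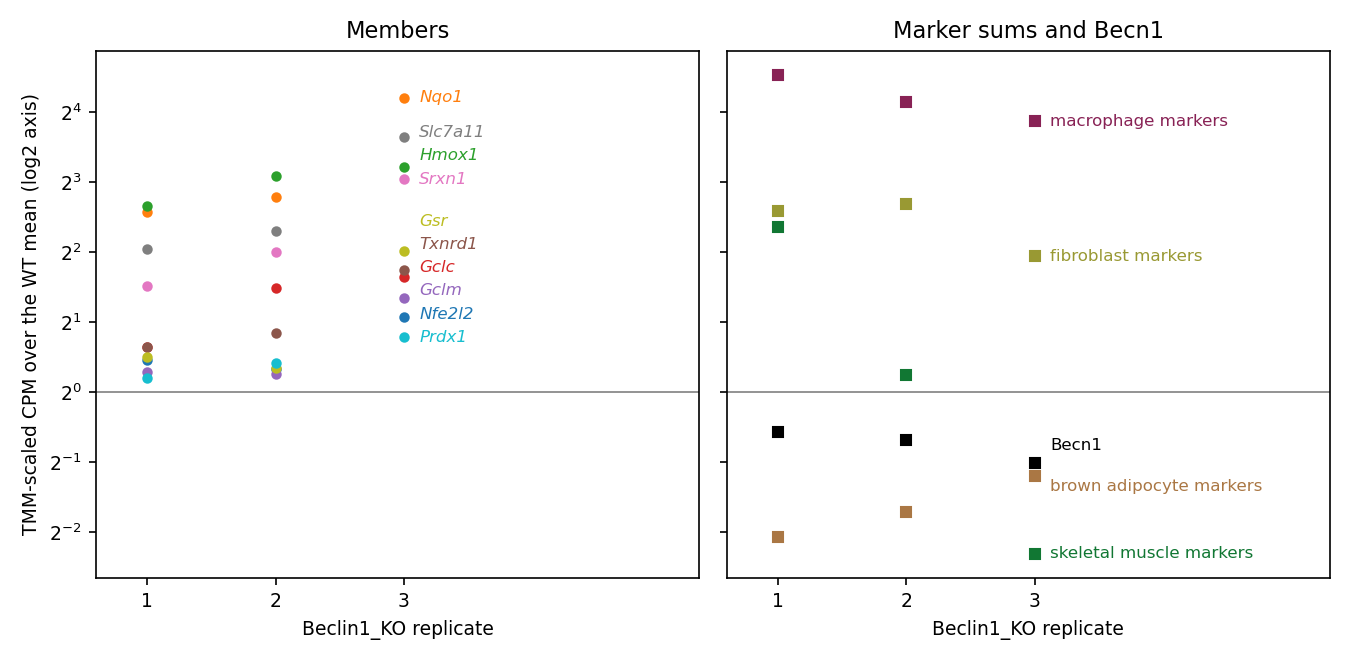
TMM-scaled CPM over the WT mean (log2 axis) in each Beclin1_KO library, for the 10 genes (left, circles) and for summed markers of 4 cell types and Becn1 (right, squares). All 10 genes are highest in replicate 3. Macrophage markers are at 23.2 times the WT mean in replicate 1 and at 14.7 times in replicate 3.

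The regulators of NRF2 moved in both directions. Of 14 regulators and partners, 7 rose, 5 fell and 2 did not pass (median log2 change 0.25). Over all genes tested 24.8% rose and 21.8% fell. Keap1 stood at 94.6 ± 1.89 CPM in WT and 82.1 ± 6.91 CPM in Beclin1_KO (adjusted p = 0.140), a log2 change of -0.20 that turned to 0.19 and 0.20 on the FPKM scale. Sqstm1, the cargo receptor that binds KEAP1, rose from 299 ± 54.7 CPM to 666, 684 and 902 CPM (log2 change 1.33, SE 0.20, adjusted p = 0.00215), again with replicate 3 the highest. Bach1, the repressor, rose as well, from 34.0, 29.3 and 26.8 CPM to 86.7, 72.4 and 82.9 CPM (log2 change 1.43, SE 0.13, adjusted p = 0.000294).

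All 3 small MAF genes, whose products pair with NRF2 or BACH1, rose. Maff had a log2 change of 1.73 (SE 0.30, adjusted p = 0.00409), Mafk of 0.59 (adjusted p = 0.0405) and Mafg of 0.43 (adjusted p = 0.0375). The call of Mafk was lost without any single WT library (adjusted p = 0.0795, 0.114 and 0.115), with limma-voom (0.0527), with the replicate number as a block (0.0569) and in the fit of 2 against 2 libraries (0.113). That of Mafg was lost without WT replicate 2 (0.115), WT replicate 3 (0.114), Beclin1_KO replicate 1 (0.0923) or Beclin1_KO replicate 3 (0.0856), and in the fit of 2 against 2 (0.213). Nfe2l3, a relative of Nfe2l2, rose from 1.22 ± 0.491 to 6.19 ± 2.01 CPM and Bach2 from 2.15 ± 0.639 to 6.36 ± 2.13 CPM. The genes that fell were Cul3, Rbx1, Btrc, Gsk3b and Nfe2l1, and the products of Cul3, Rbx1, Btrc and Gsk3b take part in marking NRF2 for degradation. The largest of these falls was that of Gsk3b, from 79.0 ± 13.1 to 44.2 ± 3.66 CPM (log2 change -0.84, adjusted p = 0.00393). Without WT replicate 2 or WT replicate 3, 5 of these regulators rose and 1 fell, and in the fit of 2 against 2 libraries 4 rose and 1 fell. On the FPKM scale 7 rose and 1 fell. Of all calls on log2(FPKM + 1) 74.2% were higher, against 53.3% in the main fit.

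Glutathione genes outside the 10 showed no shared direction. Of 17 tested, 4 rose (Ggt5, Chac1, Gpx7 and Glrx), 6 fell and 7 did not pass (median 0.37). The share that rose, 23.5%, was near the 24.8% of all genes tested. Falls, 6 of 17, made up a larger share than the 21.8% of all genes tested. Ggt5, a gamma-glutamyltransferase, rose from 8.53 ± 0.395 to 49.0 ± 16.2 CPM, and Chac1, which degrades glutathione, from 1.56 ± 0.498 to 9.33 ± 2.02 CPM. The glutaredoxin gene Glrx rose by a log2 change of 1.09, and its relative Glrx3 had a log2 change of -0.96. Gpx4, the peroxidase that protects membrane lipids, fell from 1785 ± 183 to 888 ± 244 CPM (log2 change -1.01, SE 0.23, adjusted p = 0.0108), a call lost in the fit of 2 against 2 libraries (0.0760). Slc3a2, the partner of Slc7a11 in the cystine exchanger, stood at 92.3, 73.0 and 128 CPM in WT and at 129, 84.9 and 312 CPM in Beclin1_KO (adjusted p = 0.228), so its groups overlapped and replicate 3 was again the highest. Gss, which completes glutathione, stood at 42.2 ± 8.13 and 54.6 ± 20.3 CPM (adjusted p = 0.309).

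Most thioredoxin-system genes that passed were lower, among them those of mitochondrial enzymes. Of 18 genes of this system outside the 10, 2 rose (Sesn1 and Msrb1), 7 fell and 9 did not pass (median -0.39). That is 11.1% that rose, against 24.8% of all genes tested, of which 21.8% fell. In the fit of 2 against 2 libraries 2 rose and 3 fell, and on the FPKM scale 4 rose and 5 fell. Rises made up 74.2% of all calls on log2(FPKM + 1), against 53.3% in the main fit. Txnrd2, the mitochondrial thioredoxin reductase, fell from 98.5 ± 9.79 to 36.5 ± 7.63 CPM (log2 change -1.43, SE 0.17, adjusted p = 0.000811), whereas Txnrd1, its cytosolic counterpart, rose. The mitochondrial peroxiredoxin Prdx3 fell by 1.05 and Prdx5 by 1.11 on the log2 scale (adjusted p = 0.00826 and 0.00263), the call of Prdx3 being lost in the fit of 2 against 2 libraries (0.0771), and the methionine sulfoxide reductase gene Msrb2 fell by 1.49. Txn1, the cytosolic thioredoxin, stood at 186 ± 4.94 and 179.5 ± 26.5 CPM (adjusted p = 0.80). Brown adipocyte markers fell in the same libraries (10 of 10, median -1.57), and their part in these falls was not tested.

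Genes of NADPH supply, on which glutathione and thioredoxin reductases and Nqo1 all draw, more often fell than rose. Of 13 tested, 0 rose, 9 fell and 4 did not pass, against 21.8% of all genes tested that fell (median -0.93). Tkt and Taldo1 of the pentose phosphate pathway fell from 8059 ± 2606 and 1283 ± 230.3 CPM to 639 ± 202 and 353 ± 114 CPM. Me1, malic enzyme, fell from 1175 ± 690.1 to 122 ± 17.0 CPM, a log2 change of -3.27. Pgls, Rpe and Nadk2 had log2 changes of -1.16, -1.26 and -1.06. G6pdx and Pgd, the pathway's enzymes that make NADPH, stood at 454 ± 135 and 905 ± 463 CPM in WT and at 251 ± 99.2 and 474 ± 209 CPM in Beclin1_KO and did not pass (adjusted p = 0.0717 and 0.148). Idh1 fell (log2 change -0.87, adjusted p = 0.00480). Idh2 (log2 change -0.19, adjusted p = 0.494) and Nnt (1.35, adjusted p = 0.0961), whose enzymes also make NADPH, did not pass. Tkt, Taldo1, Me1, G6pdx and Pgd are themselves described as NRF2 targets in mouse. The other neighbouring genes, whether they rose or fell, were not sorted by that property. On the FPKM scale, and without WT replicate 2, 1 of the 13 rose and 9 fell, and in the fit of 2 against 2 libraries 1 rose and 6 fell. Brown adipocyte markers fell in these libraries too.

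Both ferritin genes rose as well. Of 10 genes of heme and iron handling, 3 rose, Abcb6 fell and 6 did not pass (median 0.23). The list's share of rises, 30%, was near the 24.8% of all genes tested. Ftl1, ferritin light chain, rose from 1210, 1063 and 1083 CPM to 5818, 5402 and 5249 CPM (log2 change 2.29, SE 0.17, adjusted p = 0.000155), and Fth1, the heavy chain, from 3434 ± 271 to 6236 ± 942 CPM (log2 change 0.86, adjusted p = 0.0107). Among the knockouts Ftl1 was highest in replicate 1, as were summed macrophage markers, whose part was not tested, and lowest in replicate 3. The iron exporter gene Slc40a1 rose from 33.6 ± 3.01 to 66.8 ± 27.6 CPM (adjusted p = 0.0263), a call lost without any single WT library (0.0670 to 0.0823), and Fth1 lost its call without WT replicate 1 (0.0557) or WT replicate 2 (0.0572) and in the fit of 2 against 2 libraries (0.0969). Blvrb, a biliverdin reductase, stood at 72.7 ± 8.42 and 86.5 ± 11.6 CPM with an adjusted p of 0.185, and of 0.0132 on the log2(FPKM + 0.1) scale. On the FPKM scale 6 of the 10 genes rose and 1 fell, and without WT replicate 1 the counts were 1 and 1. Over all genes, too, rises were a larger share of calls on log2(FPKM + 1), 74.2% against 53.3% in the main fit.

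Detoxification genes passed in each direction at about the share of all genes tested, of which 24.8% rose and 21.8% fell. Of 34 tested, 9 rose (26.5%), 9 fell and 16 did not pass (median -0.01). On log2(FPKM + 1), which tested fewer of them, 13 were higher and 6 lower. Of all calls on that scale 74.2% were higher, against 53.3% in the main fit, so more rises there are not particular to this list. Abcc3, an exporter of conjugates, rose from 1.42 ± 0.722 to 29.2 ± 10.4 CPM, Ephx1, the microsomal epoxide hydrolase, from 37.4 ± 8.32 to 197 ± 61.9 CPM, and the aldo-keto reductase gene Akr1b8 from 24.5 ± 4.19 to 54.3 ± 5.69 CPM. The other genes that rose were Gsta1, Gsta3, Cbr3, Ptgr1, Osgin1 and Ugdh. Cbr3 rose from 4.09 ± 0.775 to 153 ± 115 CPM (log2 change 5.23, SE 0.62, adjusted p = 0.00152), more than any of the 10 genes. Gsta3 rose from 1.37 ± 0.528 to 12.9 ± 5.90 CPM (log2 change 3.23, SE 0.48). Both were highest in Beclin1_KO replicate 3. Gsta1 was at 0 counts in every WT library and at 12, 24 and 108 counts (0.728 ± 0.753 CPM) in the knockouts, at least 10.4-fold higher when 3 counts are taken as the floor of each WT library. Without Beclin1_KO replicate 3, a setting added after the values were seen, that bound was 4.22-fold. Gstz1, the glutathione transferase of tyrosine breakdown, fell from 274 ± 32.9 to 54.4 ± 8.35 CPM (log2 change -2.33, SE 0.17, adjusted p = 0.000136). Near-identical transcripts were searched for the 10 genes only, so the split of reads among related glutathione transferases was not checked.

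Among other antioxidant enzymes, the superoxide dismutases of cytosol and mitochondria were lower. Of 11 genes, 3 rose (Pon2, Mt2 and Sepp1), 4 fell and 4 did not pass (median -0.03). Rises made up 27.3%, near the 24.8% of all genes tested. Falls, 4 of 11, were a larger share than the 21.8% of all genes tested. Sod1 fell from 794 ± 63.9 to 302 ± 33.3 CPM (log2 change -1.40, SE 0.15, adjusted p = 0.000543), and Ccs, its copper chaperone, from 83.6 ± 1.87 to 31.5 ± 2.76 CPM. The paraoxonase genes moved apart, Pon2 by a log2 change of 0.53 and Pon3 by -1.28. Sod2 had a log2 change of -0.97 (adjusted p = 0.0337). The Sod2 call was lost without WT replicate 1 (0.0505), 2 (0.0800) or 3 (0.101), without Beclin1_KO replicate 1 (0.0890) or 2 (0.109), in the fit of 2 against 2 libraries (0.174), and on both FPKM scales (0.0679 with a pseudocount of 1 and 0.0678 with 0.1). Cat, catalase, stood at 933, 892 and 1023 CPM in WT and at 687, 638 and 1272 CPM in Beclin1_KO (adjusted p = 0.727). Without Beclin1_KO replicate 3, where it was highest, catalase passed as lower (log2 change -0.52, adjusted p = 0.0136).

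**Figure D4:**
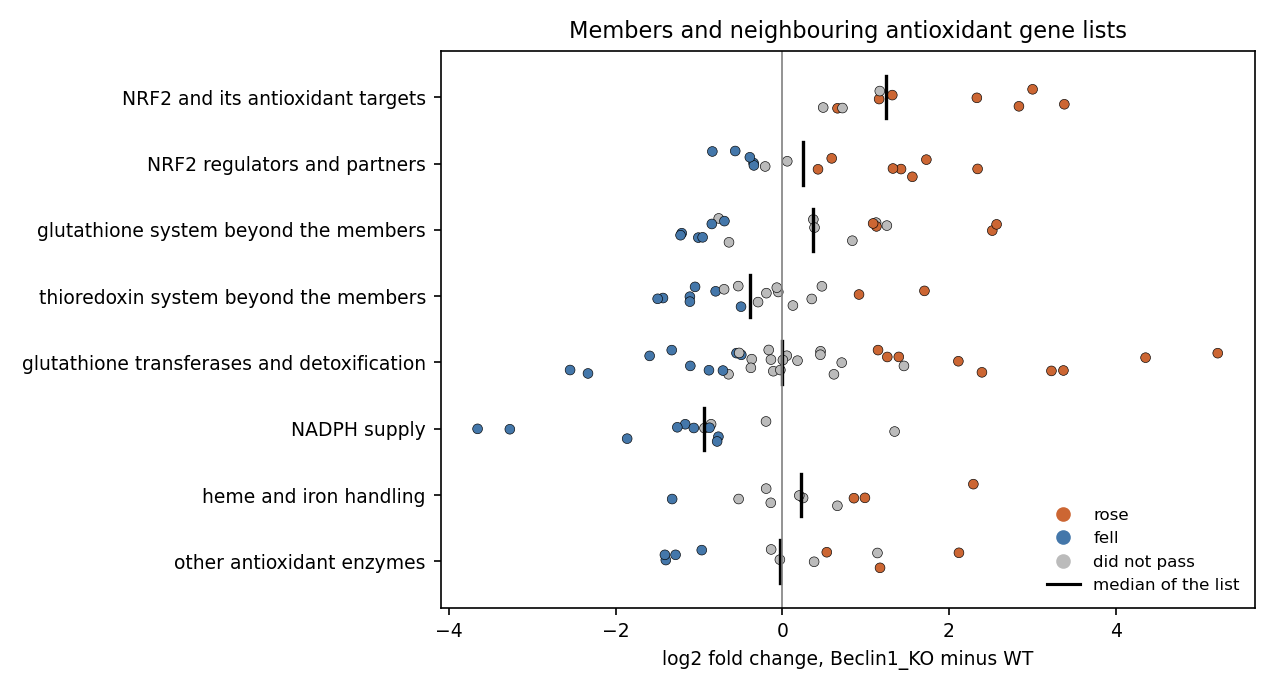
Log2 change (Beclin1_KO minus WT) of every tested gene of the 10 members and 7 neighbouring lists, coloured by whether it rose, fell or did not pass, with a black line at the median of each list. The 10 members lie between 0.49 and 3.39, the NADPH supply genes mostly below 0, and Gsta1, at 0 in WT, is drawn at its lower bound of 3.38 (10.4-fold, or 4.22-fold without Beclin1_KO replicate 3).

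The genes whose pattern over the 6 libraries was most like that of Nfe2l2, by the correlation of log2(CPM + 1) among 11108 genes of at least 5 CPM, were Nars, Zcchc24, Vrk3, Atf6 and Mafk. Their Pearson r was 0.987 to 0.996, and Mafk is the small MAF gene described above. The genes most like Hmox1 were Snx24, Phf11d, Clu, Ccr1 and Casp12, with r of 0.994 to 0.998. The libraries form 2 separate groups, so these values describe a step between groups and the place of single libraries, and no test was attached to them. Clu, which encodes clusterin, stood at 17.5, 44.0 and 17.6 CPM in WT and at 281, 546 and 509 CPM in Beclin1_KO, sharing the high WT replicate 2 of Hmox1.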

How the data were processed

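RNA of interscapular brown adipose tissue was sequenced after TruSeq Stranded mRNA preparation, per the labels' protocols. The submitters' processing notes list, with no roles, the build mm10 and the tools HISAT2 2.1.0, StringTie 1.3.4d, DESeq2, Trimmomatic and bcl2fastq 2.20.0. The authors deposited read counts per gene (whole numbers, not normalized) and FPKM values, per the file headers, with a signed fold score and an adjusted p-value of their own comparison.

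Counts were tested with edgeR 4.0.16 (R 4.3.3): filterByExpr (15347 genes kept), TMM scaling, a robust quasi-likelihood fit of genotype, Benjamini-Hochberg adjustment over all genes tested, and a threshold of 0.05. CPM are scaled by TMM, and ± is the SD over 3 libraries. Genes "rose" or "fell" where the adjusted p was below 0.05. Each SE was taken as the absolute log2 change divided by the root of the F statistic.

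The members, the 7 neighbouring lists, the markers and the rule for named genes (all members, 17 further genes, up to 4 genes per list with the smallest p, 5 genes most like Nfe2l2 and Hmox1) were chosen with earlier results of these data known. Some genes were named after their values were seen. They are those that make up a count of 5 or fewer and the 9 detoxification and 5 regulator genes listed by direction. Others are Hmox2, Bach2, Taldo1, Me1, G6pdx, Pgd, Idh1, Idh2, Nnt and Hbb-bs. Positions come from RefSeq by Entrez number, and overlaps and near-identical transcripts (95% identity over 200 bases or more) from GENCODE with BLAST. No pair of libraries agreed within sampling noise. The sources used here do not state whether counting used the strand. The fit was tested on simulated data. Alternatives covered scaling, filters, DESeq2 1.42.0, limma 3.58.1 (voom, and log2(FPKM + 1) and log2(FPKM + 0.1)), the replicate number as a block and left-out libraries. The labels call the samples biological replicates.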

Additional observations from a re-analysis of the deposited data

How the results depend on the processing

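The count over all genes (7150), over the 10 members (7) and over the 7 lists (69) stayed within 1.5 times under all 18 alternatives, with 5 to 9 members passing. All 10 members kept a positive log2 fold change, and Nqo1, Hmox1, Gclc, Srxn1 and Slc7a11 passed in every alternative that tested them, Slc7a11 being below the FPKM minimum. With DESeq2, Gsr (1.18) and Prdx1 (0.49) passed, with the same adjusted p as in the authors' deposited table. On log2(FPKM + 1) and log2(FPKM + 0.1), Gclm (0.94 and 0.98), Gsr (1.25 and 1.31) and Prdx1 (0.83 and 0.83) passed. These scales lie above the TMM fit by a median of 0.32 and 0.34 over all genes, and 74.2% and 74.3% of their calls were higher, against 53.3%. In the fit of 2 against 2 libraries Nfe2l2 did not pass (0.72). Leaving out single libraries gave log2 fold changes of 0.40 to 0.81 for Nfe2l2, 0.74 to 1.37 for Txnrd1 and 0.43 to 1.46 for Gsr. Signs turned for genes that did not pass: Keap1 (0.19 and 0.20), Cat (0.15 and 0.15) and Txn1 (0.29 and 0.29) on the FPKM scales and Txn1 in the fit of 2 against 2 (0.0828). Leaving out single libraries gave -0.519 to 0.0464 for Cat and -0.132 to 0.0684 for Txn1, above 0 for Cat without Beclin1_KO replicate 1 or 2 and for Txn1 without Beclin1_KO replicate 1. The causes were not tested.

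Replicate numbers are not said to pair animals. Deviations from the group means correlated at -0.42, 0.0047 and 0.43 for equal numbers, and not every library correlated best with its own number. With the replicate number as a block 6403 genes passed, 8 members among them, and Prdx1 passed (0.48). Low counts limit Slc7a11.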
